A study of Orbilia oligospora with 9 samples.

Results

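Hyphae of 2 mutants of Orbilia oligospora, a fungus that traps nematodes and is also known as Arthrobotrys oligospora, were set against each other: the Aovps1 mutant and the Aomdv1 mutant, each altered in 1 of 2 proteins that the study links to mitochondrial division. The loci compared are all those with at least 1 FPKM (fragments scaled by gene length and by the library's total) in at least 3 of the 6 libraries of these mutants. That left 9815 loci of the 12901 in the table, 8763 of them with a locus tag and 1052 called anew by the authors without one. The Aovps1 mutant and the Aomdv1 mutant have 3 libraries each, and 3 WT libraries are given beside them. All strains derive from ATCC 24927 and grew at 28 °C for 5 days on TYGA, an agar of tryptone, yeast extract and glucose. No nematodes are mentioned, and every library carries the same treatment tag, that of aerial hyphae differentiation. The sample labels call both genotypes a knockdown, whereas the study design calls them deletion mutants. Whether a mutant is 1 transformant or several, and whether each library came from its own plate, is not said, so p-values here reflect the scatter among these libraries, which may be technical.

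Mitochondria divide when a dynamin-family GTPase wraps round them and squeezes. In yeast the anchor protein Fis1 sits in the outer membrane, the adaptor Mdv1 binds it, and Mdv1 gathers the GTPase Dnm1 on the surface. Vps1, a related GTPase, is known in yeast mainly for sorting proteins to the vacuole and for endocytosis and peroxisome division. The study names Vps1 and Mdv1 of this fungus as partners in mitochondrial fission, so the direct comparison asks how far the transcriptomes of the 2 mutants differ from each other.

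No locus passed the threshold between the mutants. With a moderated test (limma) on log2(FPKM + 1), fitted on all 9 libraries, 0 of 9815 loci (0%) had a Benjamini-Hochberg adjusted p below 0.05. The smallest adjusted p was 0.0601 and the second smallest was 0.271. At an unadjusted p below 0.05 there were 949 loci (9.67%), of which 629 (6.41%) were higher and 320 (3.26%) lower in the Aovps1 mutant. The median 95% interval of a locus reached 0.86 to either side of its log2 difference, so a locus of typical spread needed a difference larger than this for its interval to leave 0. Differences of 1 or more on the log2 scale were seen at 1039 loci, 716 higher and 323 lower in the Aovps1 mutant. Every difference below is therefore a measured value and not a call.

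The number of calls depended on how the libraries were weighted. Weights estimated from each library's own scatter (limma's array weights) were 5.33, 1.30 and 3.71 for the Aovps1 libraries and 1.86, 0.526 and 0.12 for Aomdv1 libraries 1, 2 and 3. With these weights 107 loci (1.09%) passed the adjusted threshold, 39 (0.397%) higher and 68 (0.693%) lower in the Aovps1 mutant, so the calls leaned the opposite way to the unweighted differences. Of the 24 loci described one by one below, 18 were among them, but the 24 were picked by small p in the same libraries.

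On the deposited FPKM scale, at 1760 loci (17.9%) all 3 Aovps1 libraries lay above all 3 Aomdv1 libraries, and at 576 loci (5.87%) all 3 lay below. The median log2 difference over all loci was 0.18, and 63.3% of loci had a positive one. This lean towards the Aovps1 mutant depended on the scaling of the libraries. Of the loci without overlap 75.3% lay above on the deposited scale, against 52.3% with median-ratio scaling (1080 above and 986 below) and 58.4% with quantile scaling (1161 above and 826 below). At an unadjusted p below 0.05, median-ratio scaling gave 362 loci higher and 533 lower, the opposite lean. The median of all loci was then 0.002, and 0.02 with quantile scaling, so list medians and counts below are to be read against those of all loci. Few loci had the mutants on opposite sides of 1 FPKM. Of the 9815, 37 stood at 1 FPKM or more in all 3 Aovps1 libraries and below 1 in all 3 Aomdv1 libraries, and 28 showed the reverse. In the first set the highest mean was 3.31 FPKM, and in the second it was 5.96 FPKM. Such loci entered the comparison through their high group alone and are apart by definition. Some lay close to 1 FPKM on both sides, so this is not presence against absence. An exact permutation test of 3 libraries against 3 cannot give a p below 0.1.

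**Figure D1:**
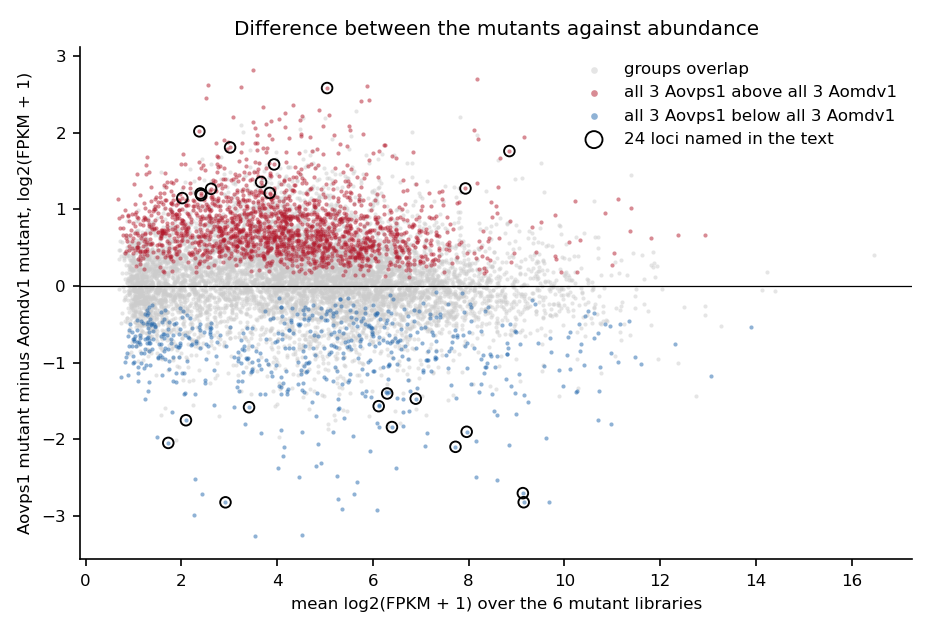
Log2 difference between the Aovps1 mutant and the Aomdv1 mutant (y axis) against the mean log2(FPKM + 1) of their 6 libraries (x axis) for 9815 loci. Red points are the 1760 loci with all 3 Aovps1 libraries above all 3 Aomdv1 libraries, blue points the 576 with the opposite order, and circles the 24 loci named by the naming rule; none passed the adjusted threshold.

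The libraries of the Aomdv1 mutant were far less alike than those of the Aovps1 mutant. Across loci, log2 values correlated at 0.978 to 0.99 among the Aovps1 libraries and at 0.852 to 0.957 among the Aomdv1 libraries. The median SD of a locus on the log2 scale was 0.19 over the 3 Aovps1 libraries and 0.53 over the 3 Aomdv1 libraries, and 0.28 over Aomdv1 libraries 1 and 2 alone. Aomdv1 library 1 correlated with the Aovps1 libraries at 0.972 to 0.974, above its correlation of 0.957 with Aomdv1 library 2. Without it 25 loci passed the adjusted threshold. Its assignment could not be checked, since neither targeted transcript told the mutants apart, and every difference here holds only as far as the labels are right. Aomdv1 library 3 stood apart: at 693 loci it lay more than 2 log2 units from both other Aomdv1 libraries while those were within 1 of each other, and at 659 of these it was the low one. The same count was 33 and 27 for Aomdv1 libraries 1 and 2, and 0 to 1 for the Aovps1 libraries. WT library 3 also stood apart, at 364 loci, with an array weight of 0.172 and correlations of 0.893 and 0.903 with the other WT libraries, which correlated at 0.982. Leaving it out together with Aomdv1 library 3 gave 58 calls between the mutants, against 2 without Aomdv1 library 3 alone. Estimated depths were 18050000 to 19250000 fragments in Aovps1 libraries, 15825000 to 17300000 in Aomdv1 libraries and 17100000 to 19125000 in WT libraries, the lowest being that of Aomdv1 library 3.

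Aomdv1 library 3 also departed from its group by gene length. Loci were split into 4 classes of equal size by genomic span, introns included. In the shortest class (150 to 908 bp) its median deviation from the other Aomdv1 libraries was 0.33 on the log2 scale, and in the longest class (2154 to 83406 bp) it was -0.63. The medians of the 3 Aovps1 libraries stayed between -0.04 and 0.04 in every class. Between the mutants, the 2454 members in the longest class had a median difference of 0.40, with 30.8% of loci above and 2.53% below without overlap. The 2455 members in the shortest class had a median of -0.01, with 8.47% above and 9.29% below. With the span trend of each library removed, 953 loci (9.71%) lay above and 974 (9.92%) below. Loci above without overlap spanned a median of 1956 bp, and loci below without overlap spanned 1053 bp, against 1417 bp for all members. Without Aomdv1 library 3 the median of all loci was 0.11, and the groups then did not overlap at 2549 loci above (26%) and 1225 below (12.5%), a count that is easier to reach with 2 libraries in 1 group. Results below are given with and without that library or with the span trend of each library removed, where this matters. The part of RNA quality or preparation in the trend was not tested.

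**Figure D2:**
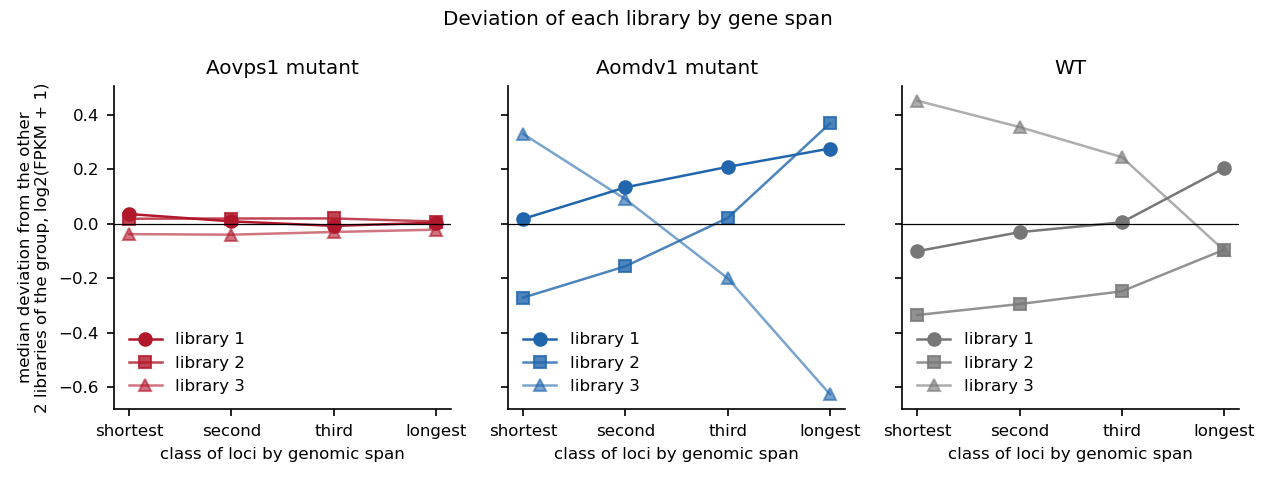
Median deviation of each library from the other 2 of its group on the log2(FPKM + 1) scale (y axis), by class of loci ordered by genomic span (x axis), for the Aovps1 mutant, the Aomdv1 mutant and WT. The Aovps1 libraries stay near 0, whereas Aomdv1 library 3 goes from 0.33 in the shortest class to -0.63 in the longest.

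Neither targeted transcript separated the mutants. MDV1 (AOL_s00097g206, on NW_011645654.1 at 709346 to 711512, minus strand) had 116.85, 148.53 and 104.71 FPKM in the Aovps1 mutant, 126.95, 117.84 and 82.46 FPKM in the Aomdv1 mutant and 133.24, 116.38 and 113.93 FPKM in WT. The libraries labelled Aomdv1 mutant thus still carried MDV1 reads, and the groups overlapped (log2 difference 0.18, 95% interval -0.42 to 0.79, adjusted p = 0.801 in limma). VPS1 (AOL_s00007g394, on NW_011645564.1 at 1420575 to 1423280, plus strand) had 44.34, 22.55 and 46.92 FPKM in the Aovps1 mutant, 41.24, 55.05 and 35.74 FPKM in the Aomdv1 mutant and 105.38, 72.7 and 83.09 FPKM in WT. Both mutants lay below WT, and they overlapped each other (log2 difference -0.26, 95% interval -1.03 to 0.51, limma adjusted p = 0.782). The values at the 2 genes do not tell the mutants apart, so the groups are named here by their labels. Values summed over a whole gene do not show whether a part of it is missing.

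The partners of fission and fusion were as close. DNM1 (AOL_s00078g290), the fission GTPase, averaged 65.14 ± 13.76 FPKM in the Aovps1 mutant and 51.46 ± 12.69 FPKM in the Aomdv1 mutant (SD, n = 3 each). FIS1 (AOL_s00109g118), the membrane anchor, averaged 124.14 ± 20.83 FPKM in the Aovps1 mutant and 137.01 ± 36.91 FPKM in the Aomdv1 mutant. MGM1 (AOL_s00215g191), the GTPase that fuses inner membranes, averaged 49.33 ± 4.59 FPKM in the Aovps1 mutant and 48.39 ± 8.41 FPKM in the Aomdv1 mutant. The outer-membrane fusion GTPase FZO1 (AOL_s00054g413) had 82.39, 87.08 and 73.67 FPKM in the Aovps1 mutant and 95.83, 98.79 and 24.03 FPKM in the Aomdv1 mutant. Its log2 difference was 0.39 with all libraries and -0.26 without Aomdv1 library 3, so 1 library set its direction. MTP18 (AOL_s00079g30), a mitochondrial inner-membrane protein known from human cells to take part in fission, had 91.02, 88.68 and 87.15 FPKM in the Aovps1 mutant, 93.28, 65.03 and 55.76 FPKM in the Aomdv1 mutant and 20.83, 12.74 and 28.79 FPKM in WT. Both mutants lay far above WT for MTP18, with 1 Aomdv1 library above all of the Aovps1 mutant (log2 difference 0.35, 95% interval -0.41 to 1.10, limma adjusted p = 0.686). Of the 18 tested loci annotated for fission or fusion of mitochondria, 0 lay apart without overlap in either direction, against 23.8% of all loci. Without Aomdv1 library 3, 3 of the 18 (16.7%) lay below and 0 above, against 12.5% and 26% of all loci.

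The locus nearest to the threshold was AOL_s00210g28 (on NW_011645767.1 at 124554 to 125200, plus strand), which holds the domain of the I66 peptidase inhibitors, a family of fungal serine protease inhibitors. It had 217.03, 199.33 and 221.91 FPKM in the Aovps1 mutant, 1585.02, 2074.3 and 1044.97 FPKM in the Aomdv1 mutant and 2238.89, 2078.85 and 3842.63 FPKM in WT. The Aovps1 libraries were within a narrow band, far below the others, and the mean of the Aomdv1 mutant was 7.37 times theirs (log2 difference -2.82, 95% interval -3.56 to -2.09, limma adjusted p = 0.0601). It passed the threshold in 6 of 17 alternative analyses, with adjusted p between 1.72e-05 and 0.497. A neighbouring locus without a tag, on the minus strand, begins at 125202, just past the end of the inhibitor gene. It had 8.47, 8.39 and 8.03 FPKM in the Aovps1 mutant, 39.26, 47.54 and 72.76 FPKM in the Aomdv1 mutant and 38.84, 40.47 and 126.78 FPKM in WT. Whether the counting used strand is not given in the sources used here, so reads of these neighbours may not be fully told apart. In RNA from whole cultures, a lower level in every hypha and fewer hyphae with the transcript cannot be told apart, here or at any locus below.

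For 3 enzyme genes below in the Aovps1 mutant, the Aomdv1 mutant stood between the Aovps1 mutant and WT or near WT. AOL_s00215g448, a diacylglycerol acyltransferase that makes the last step to storage fat, had 49.02, 44.54 and 37.8 FPKM in the Aovps1 mutant, 146.37, 180.28 and 151.32 FPKM in the Aomdv1 mutant and 482.48, 1157.79 and 424.98 FPKM in WT. No library of a group reached into the next one (log2 difference between the mutants -1.84, 95% interval -2.66 to -1.02, limma adjusted p = 0.315). Cystathionine gamma-lyase (AOL_s00078g256), which releases cysteine from cystathionine, had 46.58, 58.48 and 39.05 FPKM in the Aovps1 mutant, 109.64, 111.03 and 168.13 FPKM in the Aomdv1 mutant and 247.37, 333.18 and 210.47 FPKM in WT. Here too the 3 groups were in steps (log2 difference -1.40, limma adjusted p = 0.370). Uricase (AOL_s00097g623), which oxidises urate in purine breakdown, averaged 71.87 ± 16.96 FPKM in the Aovps1 mutant, 198.15 ± 25.63 FPKM in the Aomdv1 mutant and 238.08 ± 65.55 FPKM in WT (SD, n = 3 each). These are single genes: of 142 tested loci on the sterol and lipid synthesis list 23 (16.2%) lay above and 8 (5.63%) below without overlap, and of 62 on the sulfur and methionine list 2 (3.23%) lay above and 6 (9.68%) below, against 17.9% and 5.87% of all loci.

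A lectin of the Agaricus bisporus type (AOL_s00080g288, on NW_011645637.1 at 1028170 to 1030497, plus strand), a sugar-binding protein of a fungal family, was low in both mutants and lowest in the Aovps1 mutant. It had 111.14, 169.37 and 110.38 FPKM in the Aovps1 mutant, 508.4, 475.09 and 458.1 FPKM in the Aomdv1 mutant and 4761.3, 8828.67 and 15724.34 FPKM in WT. The mean of the Aomdv1 mutant was 3.69 times that of the Aovps1 mutant, with no overlap (log2 difference -1.90, 95% interval -2.79 to -1.01, limma adjusted p = 0.331). Of 20 tested lectin loci, 5 (25%) lay above and 4 (20%) below without overlap, against 17.9% and 5.87% of all loci.

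Protein vip1 (AOL_s00097g530), which has an RNA-binding domain, had 270.81, 176.7 and 218.91 FPKM in the Aovps1 mutant, 709.96, 2148.11 and 1920.33 FPKM in the Aomdv1 mutant and 774.07, 1833.64 and 1005.64 FPKM in WT. Its Aomdv1 values overlapped WT and lay above all Aovps1 libraries (log2 difference -2.70, 95% interval -3.73 to -1.68, limma adjusted p = 0.299). AOL_s00097g296, the homolog of the fission yeast ribosome maturation protein sdo1, had 38.11, 42.52 and 37.78 FPKM in the Aovps1 mutant, 85.47, 141.1 and 139.31 FPKM in the Aomdv1 mutant and 116.12, 147.01 and 252.22 FPKM in WT. The F-box protein AOL_s00078g561, of the family that picks substrates for ubiquitin ligases, averaged 5.18 ± 0.61 FPKM in the Aovps1 mutant, 17.97 ± 5.42 FPKM in the Aomdv1 mutant and 32.54 ± 12.41 FPKM in WT (SD, n = 3 each).

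Secondary metabolism genes make small molecules not needed for growth. Of 10 tested loci on their list 2 (20%) lay above and 2 (20%) below without overlap, against 17.9% and 5.87% of all loci. The median log2 difference of the list was 0.42, against 0.18 over all loci, and 0.05 with the span trend removed. Single loci outside this list, below in the Aovps1 mutant and named by rule, match genes of known fungal clusters. AOL_s00004g615, like protein F of the xanthocillin cluster of Aspergillus, had 2.74, 1.28 and 1.71 FPKM in the Aovps1 mutant, 30.23, 24.87 and 9.14 FPKM in the Aomdv1 mutant and 0.07, 0.64 and 3.41 FPKM in WT. The Aomdv1 mutant was the high group, above the Aovps1 mutant and above WT (log2 difference between the mutants -2.82, 95% interval -4.09 to -1.56, limma adjusted p = 0.315). AOL_s00110g75, like the methyltransferase FUS9 of the Fusarium fusarin cluster, showed the same order, with 0.67, 1.92 and 1.59 FPKM in the Aovps1 mutant, 3.97, 11.64 and 6.69 FPKM in the Aomdv1 mutant and 0.83, 1.14 and 1.47 FPKM in WT. AOL_s00170g45, like a protein of the fusaristatin cluster, had 93.5, 110.0 and 100.81 FPKM in the Aovps1 mutant, 371.12, 450.24 and 499.26 FPKM in the Aomdv1 mutant and 410.96, 447.85 and 1453.18 FPKM in WT, so here the Aovps1 mutant was the low group. Another locus named by rule, AOL_s00006g271, is like the yeast alcohol dehydrogenase ADH7 and was not matched to a cluster. It was below 1 FPKM in all 3 Aovps1 libraries (0.51, 0.93 and 0.48). The Aomdv1 mutant had 3.72, 7.89 and 6.27 FPKM, and WT had 1.68, 3.75 and 5.64 FPKM.

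**Figure D3:**
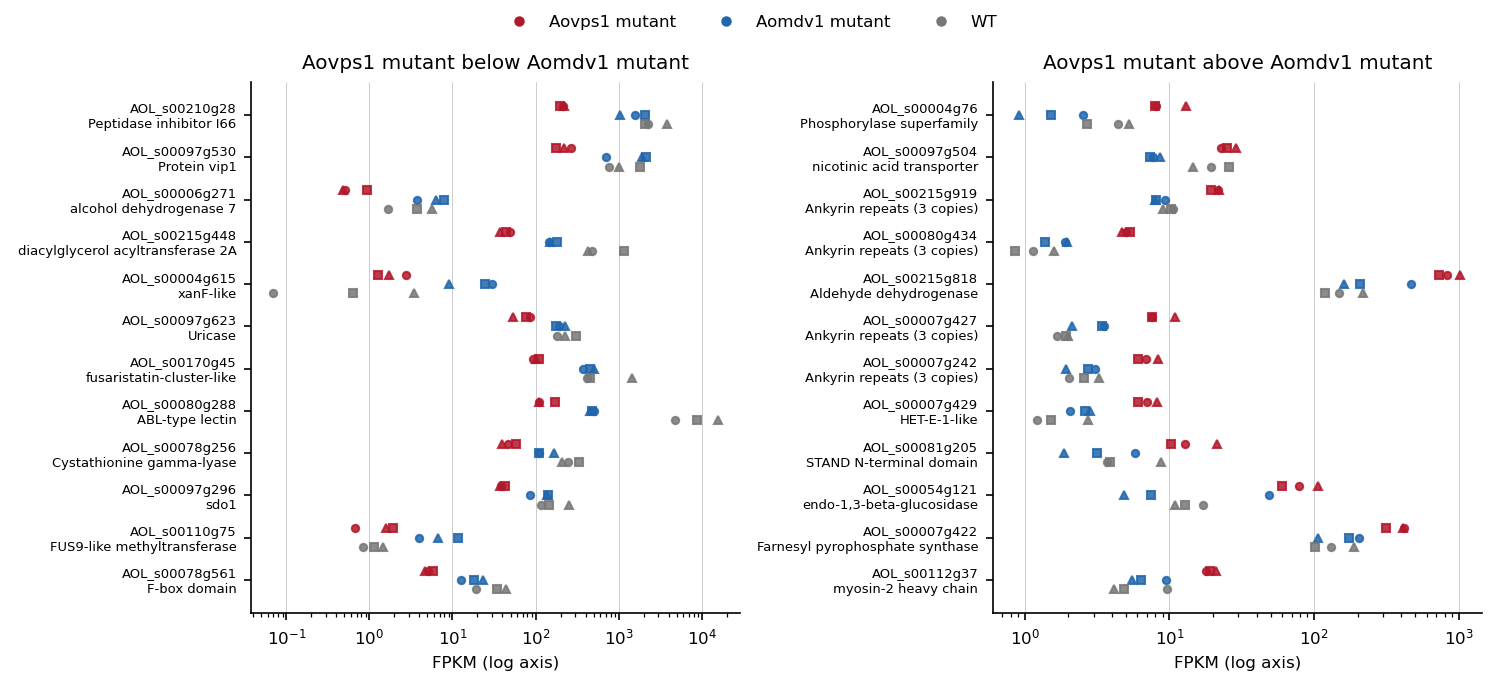
FPKM on a log axis for the 24 loci picked by the naming rule, 12 with the Aovps1 mutant below (left) and 12 with it above the Aomdv1 mutant (right). Each symbol is 1 library (circle, square and triangle for libraries 1, 2 and 3), red for the Aovps1 mutant, blue for the Aomdv1 mutant and grey for WT; the peptidase inhibitor AOL_s00210g28 at the top left has the smallest p of all loci.

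Among the 12 annotated loci that lay above in the Aovps1 mutant with the smallest unadjusted p, 6 code for ankyrin repeat, STAND or HET-E-like proteins. Ankyrin repeats are protein-binding modules, and STAND proteins are switch-like ATPases or GTPases known in fungi from the recognition of non-self hyphae. AOL_s00215g919 (on NW_011645772.1 at 3164437 to 3168288, plus strand), with ankyrin repeats, had 21.56, 19.27 and 21.88 FPKM in the Aovps1 mutant, 9.29, 8.1 and 7.99 FPKM in the Aomdv1 mutant and 10.6, 10.26 and 8.98 FPKM in WT. The Aomdv1 values lay near or below those of WT, and the Aovps1 mean was 2.47 times the Aomdv1 mean (log2 difference 1.21, 95% interval 0.61 to 1.81, limma adjusted p = 0.380). AOL_s00080g434 had 5.05, 5.33 and 4.73 FPKM in the Aovps1 mutant, 1.89, 1.38 and 1.95 FPKM in the Aomdv1 mutant and 1.14, 0.86 and 1.6 FPKM in WT. AOL_s00007g429, like the vegetative incompatibility protein HET-E-1 of Podospora, had 6.96, 6.07 and 8.16 FPKM in the Aovps1 mutant, 2.05, 2.62 and 2.81 FPKM in the Aomdv1 mutant and 1.22, 1.51 and 2.72 FPKM in WT. Its neighbour in this set, AOL_s00007g427, averaged 8.66 ± 1.91 FPKM in the Aovps1 mutant, 3.02 ± 0.78 FPKM in the Aomdv1 mutant and 1.86 ± 0.16 FPKM in WT (SD, n = 3 each). AOL_s00007g242 averaged 7.09 ± 1.18 FPKM in the Aovps1 mutant, 2.57 ± 0.57 FPKM in the Aomdv1 mutant and 2.63 ± 0.62 FPKM in WT. AOL_s00081g205, with the N-terminal domain of STAND proteins, averaged 14.81 ± 5.85 FPKM in the Aovps1 mutant, 3.61 ± 2.01 FPKM in the Aomdv1 mutant and 5.45 ± 2.87 FPKM in WT. In all 6 the Aovps1 mutant lay above both other groups. All 6 log2 differences shrank with the span trend removed, from 1.21 to 0.75 for AOL_s00215g919 and from 1.14 to 0.62 for AOL_s00080g434.

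The wider family was counted after these values were seen. Of 217 loci whose annotation names ankyrin, NACHT, NB-ARC, STAND, HET-E or heterokaryon incompatibility, 142 were tested, and 58 (40.8%) lay above without overlap and 0 below, against 17.9% and 5.87% of all loci. These genes are long, with a median span of 3513 bp, and their median log2 difference of 0.42 was 0.27 without Aomdv1 library 3 and 0.05 with the span trend removed. With that trend removed 20 of the 142 (14.1%) lay above and 8 (5.63%) below, against 9.71% and 9.92% of all loci, and with median-ratio scaling 43 (30.3%) lay above, against 11% of all loci. In the longest class of loci as a whole 30.8% lay above on the deposited scale. Members of such a family can share reads, and how the authors assigned shared reads is not given in the sources used here.

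Other loci above in the Aovps1 mutant act in transport and metabolism. AOL_s00097g504, like the yeast high-affinity carrier for nicotinic acid, had 22.91, 25.17 and 28.82 FPKM in the Aovps1 mutant, 7.67, 7.36 and 8.55 FPKM in the Aomdv1 mutant and 19.37, 25.93 and 14.6 FPKM in WT. The Aomdv1 mutant was the low group here, below both others (log2 difference 1.58, 95% interval 0.91 to 2.26, limma adjusted p = 0.312). An aldehyde dehydrogenase (AOL_s00215g818), which oxidises aldehydes to acids, had 821.88, 731.25 and 1014.97 FPKM in the Aovps1 mutant, 464.09, 207.31 and 162.16 FPKM in the Aomdv1 mutant and 147.49, 118.11 and 219.23 FPKM in WT. Aomdv1 library 1 was more than 2 times the other Aomdv1 libraries, yet still below the Aovps1 mutant (log2 difference 1.76, 95% interval 0.86 to 2.65, limma adjusted p = 0.398). Farnesyl pyrophosphate synthase (AOL_s00007g422), which feeds sterol and isoprenoid synthesis, had 416.46, 316.32 and 412.49 FPKM in the Aovps1 mutant, 205.08, 175.49 and 106.16 FPKM in the Aomdv1 mutant and 130.82, 101.23 and 189.44 FPKM in WT.

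AOL_s00054g121, like a glucan endo-1,3-beta-glucosidase that cuts a main polymer of the fungal wall, had 78.35, 60.22 and 106.99 FPKM in the Aovps1 mutant, 48.56, 7.5 and 4.82 FPKM in the Aomdv1 mutant and 17.14, 12.77 and 11 FPKM in WT. Aomdv1 library 1 came close to the Aovps1 mutant and lay above all WT libraries. The other Aomdv1 libraries lay below all WT libraries (log2 difference between the mutants 2.58, 95% interval 1.08 to 4.08, limma adjusted p = 0.463). Myosin-2 heavy chain (AOL_s00112g37), a motor of the ring that divides cells in fission yeast, had 17.91, 18.96 and 21.11 FPKM in the Aovps1 mutant, 9.44, 6.37 and 5.48 FPKM in the Aomdv1 mutant and 9.59, 4.88 and 4.15 FPKM in WT. This gene spans 7628 bp, and its log2 difference of 1.36 was 0.81 with the span trend removed. A locus with the phosphorylase superfamily domain (AOL_s00004g76), found in enzymes that split nucleosides, averaged 9.67 ± 2.84 FPKM in the Aovps1 mutant, 1.66 ± 0.82 FPKM in the Aomdv1 mutant and 4.11 ± 1.30 FPKM in WT (SD, n = 3 each). Of the 24 loci named by rule, which were picked by small p in the same libraries, 20 passed the threshold in at least 1 alternative analysis.

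On the deposited scale, among the functional lists, DNA replication and repair had the largest share of members above without overlap. Of its 135 tested members 0 were called, 64 (47.4%) lay above without overlap and 2 (1.48%) below, against 17.9% and 5.87% of all loci. Lists were drawn by keyword or pathway map, so their shares are not counts of that process alone. The member below with the smallest p, AOL_s00076g592, is annotated as a subunit of NADH:ubiquinone oxidoreductase (complex I). The median log2 difference was 0.45, and it was 0.40 without Aomdv1 library 3, against 0.18 and 0.11 over all loci. With the span trend removed the median was 0.18. Then 34 (25.2%) lay above and 6 (4.44%) below, against 9.71% and 9.92% of all loci. With median-ratio scaling 51 (37.8%) lay above and 4 (2.96%) below, against 11% and 10% of all loci. With quantile scaling 42 (31.1%) lay above, against 11.8% of all loci. That share was smaller than that of the ER list given below (37.5%). The list for the cell cycle showed 60 of 149 members (40.3%) above and 5 below without overlap, with a median of 0.54, which was 0.24 without Aomdv1 library 3. Without that library 65 (43.6%) lay above and 24 (16.1%) below, against 26% and 12.5% of all loci. With the span trend removed 25 (16.8%) lay above and 7 (4.7%) below, against 9.71% and 9.92% of all loci. With median-ratio scaling 44 (29.5%) lay above and 6 (4.03%) below, against 11% and 10% of all loci. The median span of this list is 2202 bp.

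The proteins at the replication fork were then taken one complex at a time, a set picked after the lists were seen. The MCM complex unwinds the DNA, PCNA is the ring that holds polymerases on it, RPA covers single strands and RFC loads the ring. Of 24 fork genes 21 (87.5%) lay above without overlap and 0 below, against 17.9% and 5.87% of all loci. Their median log2 difference was 0.68, which was 0.69 without Aomdv1 library 3 and 0.41 with the span trend removed. Over all loci these medians were 0.18, 0.11 and -0.003. The number above without overlap was 18 (75%) with median-ratio scaling, 13 (54.2%) with quantile scaling and 10 (41.7%) with the span trend removed. In each of these settings 0 lay below. Of all loci 11%, 11.8% and 9.71% then lay above. On the deposited scale all 6 MCM genes lay above. MCM7 (AOL_s00054g769) had 51.71, 51.55 and 59.07 FPKM in the Aovps1 mutant, 39.73, 24.4 and 20.06 FPKM in the Aomdv1 mutant and 39.56, 23.27 and 29.67 FPKM in WT (log2 difference 0.98, 95% interval 0.24 to 1.72, limma adjusted p = 0.466). MCM3 (AOL_s00109g45) had 24.24, 32.56 and 28.94 FPKM in the Aovps1 mutant, 16.05, 14.35 and 13.44 FPKM in the Aomdv1 mutant and 20.07, 11.94 and 20.51 FPKM in WT. The Aomdv1 libraries were close together for MCM3, and its difference of 0.92 was 0.86 without Aomdv1 library 3.

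PCNA (AOL_s00043g703, on NW_011645600.1 at 2389862 to 2391010, plus strand) had 161.87, 153.48 and 162.98 FPKM in the Aovps1 mutant, 107.02, 102.6 and 83.77 FPKM in the Aomdv1 mutant and 132.86, 105.95 and 128.07 FPKM in WT. The WT libraries lay between the mutants or overlapped the Aomdv1 mutant (log2 difference between the mutants 0.71, 95% interval 0.17 to 1.24, limma adjusted p = 0.466). The RPA subunit gene RFA2 (AOL_s00006g345) had 65.18, 74.16 and 68.33 FPKM in the Aovps1 mutant, 39.46, 40.37 and 37.81 FPKM in the Aomdv1 mutant and 64.26, 43.77 and 57.59 FPKM in WT. All 3 RPA genes, 4 of 5 RFC genes and 7 of 9 polymerase subunit genes lay above without overlap. The adjusted p of the 24 genes ran from 0.464 to 0.871, so none was called.

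Processing of proteins in the endoplasmic reticulum (ER), where secreted proteins fold and receive sugars, gave 36 of 112 tested members (32.1%) above and 7 (6.25%) below without overlap, with 0 called, against 17.9% and 5.87% of all loci. The number above was 24 (21.4%) with median-ratio scaling, 42 (37.5%) with quantile scaling and 20 (17.9%) with the span trend removed, when 11%, 11.8% and 9.71% of all loci lay above. With the span trend removed, 4 members were higher and 5 lower at an unadjusted p below 0.05. Its median log2 difference was 0.29, which was 0.24 without Aomdv1 library 3 and 0.08 with the span trend removed. A set of 26 ER folding, glycosylation and translocation genes, also picked afterwards, had 20 above and 0 below, with a median of 0.60. For many of them Aomdv1 library 3 widened the gap, and the median was 0.43 without it. The number above was 14 with median-ratio scaling, 21 with quantile scaling and 12 with the span trend removed, with 0 below in each. The chaperone gene LHS1 (AOL_s00097g470) had 54.78, 67.55 and 63.68 FPKM in the Aovps1 mutant, 43.12, 31.5 and 27.28 FPKM in the Aomdv1 mutant and 22.02, 18.32 and 16.95 FPKM in WT, in 3 steps with no overlap. Calnexin (AOL_s00078g160), which holds glycoproteins while they fold, had 329.4, 397.5 and 369.05 FPKM in the Aovps1 mutant, 268.74, 246.11 and 255.72 FPKM in the Aomdv1 mutant and 167.81, 130.95 and 166.41 FPKM in WT. GCS1 (AOL_s00076g318), the glucosidase that trims the first sugar of the attached glycan, had 55.0, 57.55 and 57.87 FPKM in the Aovps1 mutant, 35.14, 35.08 and 27.69 FPKM in the Aomdv1 mutant and 16.11, 12.04 and 20.85 FPKM in WT.

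These 3 genes shared one order, with the Aovps1 mutant highest, the Aomdv1 mutant between and WT lowest. The gene of STT3 (AOL_s00007g122), the catalytic subunit that attaches the glycan, had 134.13, 126.84 and 151.67 FPKM in the Aovps1 mutant and 97.93, 105.56 and 30.16 FPKM in the Aomdv1 mutant. Its difference of 1.00 was 0.43 without Aomdv1 library 3. The adjusted p of the 26 genes ran from 0.466 to 0.993.

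**Figure D4:**
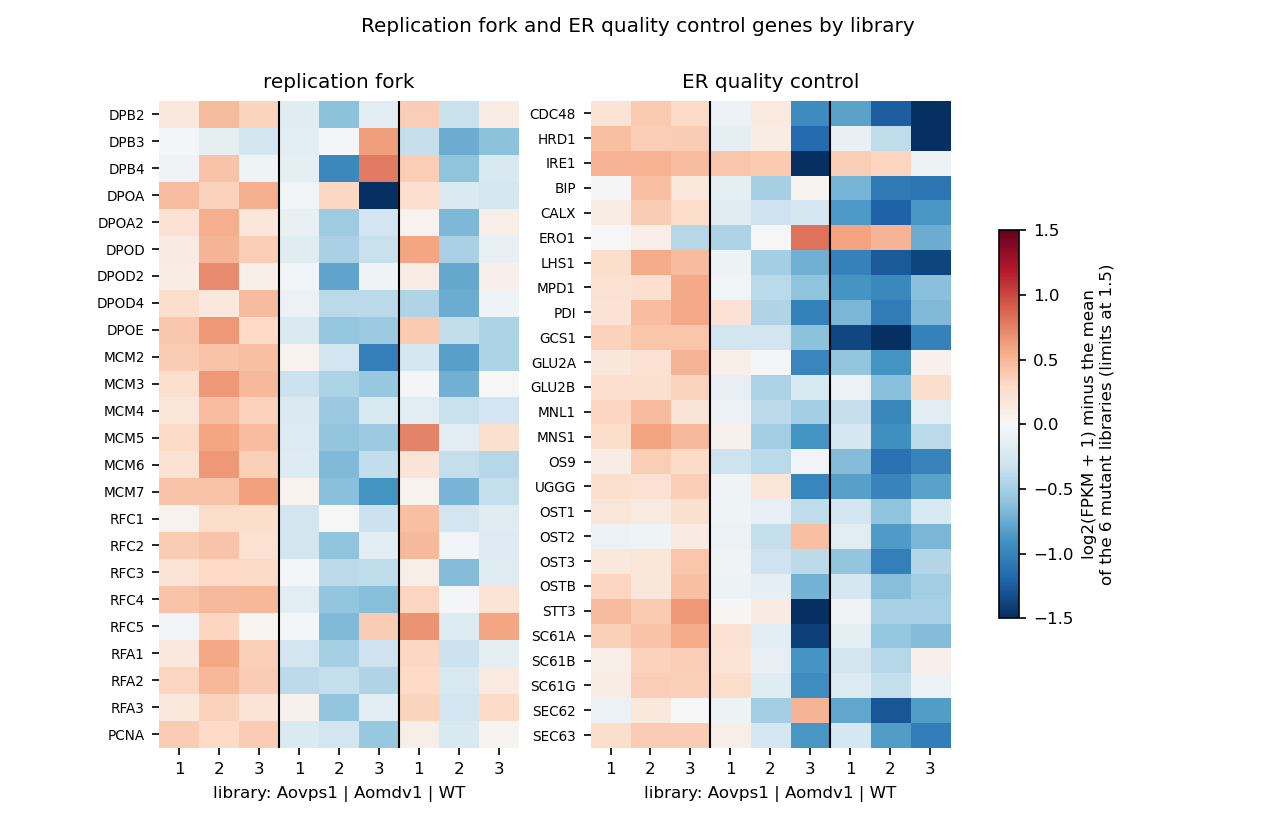
Log2(FPKM + 1) of each library minus the mean of the 6 mutant libraries, for 24 replication fork genes (left) and 26 ER quality control genes (right); columns are libraries 1 to 3 of the Aovps1 mutant, the Aomdv1 mutant and WT, and colours stop at 1.5 to either side. The Aovps1 columns are above the Aomdv1 columns without overlap in 21 fork genes and 20 ER genes, against 17.9% of all loci. Aomdv1 library 3 is the darkest blue of the Aomdv1 columns in many ER genes.

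Lists of mitochondrial genes leaned the other way or stayed near 0. For oxidative phosphorylation 1 of 97 tested members (1.03%) lay above and 9 (9.28%) below without overlap, against 17.9% and 5.87% of all loci. The median log2 difference was -0.21. It was 0.00 without Aomdv1 library 3, -0.26 with the span trend removed and -0.39 with median-ratio scaling. ATP synthase subunit f (AOL_s00004g544) had 918.43, 860.27 and 911.2 FPKM in the Aovps1 mutant and 1135.83, 1026.27 and 2187.38 FPKM in the Aomdv1 mutant. Aomdv1 library 3 was the highest of these by a wide margin. For mitochondrial import and the mitochondrial ribosome 0 of 89 lay above and 3 (3.37%) below, both smaller shares than those of all loci. The median was -0.10. It was 0.02 without Aomdv1 library 3, -0.18 with the span trend removed and -0.28 with median-ratio scaling. One of the 3 was an inner membrane import translocase subunit (AOL_s00075g196), with 252.52, 262.24 and 249.93 FPKM in the Aovps1 mutant, 450.38, 477.95 and 490.44 FPKM in the Aomdv1 mutant and 300.04, 336.79 and 290.88 FPKM in WT. The Aomdv1 mutant was the high group for it, and its libraries were close together (log2 difference -0.89, limma adjusted p = 0.457).

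Of the processes in which Vps1 is known to act in yeast, vacuolar sorting and endocytosis had smaller shares of separated members than all loci. Of all loci 17.9% lay above and 5.87% below without overlap. Among vacuolar sorting and proton pump genes 9 of 67 (13.4%) lay above and 2 (2.99%) below without overlap, with a median log2 difference of 0.16 that was -0.03 with median-ratio scaling and -0.02 without Aomdv1 library 3. Endocytosis had 15 of 107 (14%) above and 3 (2.8%) below. Without Aomdv1 library 3 it had 24 (22.4%) above and 13 (12.1%) below, against 26% and 12.5% of all loci. Autophagy and mitophagy had 26 of 143 (18.2%) above, near the share of all loci, and 5 (3.5%) below. The median of 0.23 was 0.07 without Aomdv1 library 3 and -0.04 with the span trend removed. Without Aomdv1 library 3, 32 (22.4%) lay above and 23 (16.1%) below, against 26% and 12.5% of all loci. The peroxisome and fatty acid degradation list had 22 of 104 (21.2%) above and 6 (5.77%) below, near the shares of all loci. Its median was 0.27, and 0.28 without Aomdv1 library 3. Without that library 45 of 104 (43.3%) lay above, against 26% of all loci.

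Genes of the cell surface and of development were mixed. Of 32 hydrophobin and surface adhesion genes 12 (37.5%) lay above and 1 (3.12%) below without overlap, against 17.9% and 5.87% of all loci. Their median log2 difference was 0.58, which was 0.33 without Aomdv1 library 3. A WSC domain gene of this list (AOL_s00054g549) had 8.39, 9.45 and 9.4 FPKM in the Aovps1 mutant, 4.36, 3.21 and 3.21 FPKM in the Aomdv1 mutant and 3.42, 3.47 and 6.07 FPKM in WT. Among conidiation and velvet regulators 4 of 30 (13.3%) lay above and 1 (3.33%) below, both smaller shares than those of all loci. The gene fluG (AOL_s00043g361), which starts spore formation in Aspergillus, had 27.55, 22.79 and 29.3 FPKM in the Aovps1 mutant, 18.67, 14.28 and 16.35 FPKM in the Aomdv1 mutant and 4.22, 1.7 and 5.23 FPKM in WT. Both mutants lay above WT there. The spore wall gene AOL_s00076g14, like LDS1 of yeast, had 31.03, 20.03 and 15.93 FPKM in the Aovps1 mutant, 34.68, 92.72 and 92.34 FPKM in the Aomdv1 mutant and 156.37, 199.62 and 59.97 FPKM in WT.

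MAPK signalling (92 tested) and transcription factors (186 tested) had medians of 0.49 and 0.43, which were 0.00 and 0.03 without Aomdv1 library 3. The RTA1-like membrane proteins (7 tested) had 2 (28.6%) below and 0 above without overlap, against 5.87% and 17.9% of all loci. Without Aomdv1 library 3, 5 (71.4%) lay below, against 12.5% of all loci. The example with the smallest p among those apart, AOL_s00054g302, had 439.5, 246.04 and 374.72 FPKM in the Aovps1 mutant, 562.07, 642.12 and 536.33 FPKM in the Aomdv1 mutant and 1.11, 0.82 and 1.34 FPKM in WT. The gap between the mutants was small beside the distance of both from WT. For the arthrosporol cluster, a polyketide pathway of this fungus, 0 of 10 tested loci lay apart, against 23.8% of all loci. Its median was 0.29, which was 0.02 with the span trend removed and 0.10 with median-ratio scaling. Without Aomdv1 library 3 its median was 0.73, and 5 of 10 (50%) lay above, against 26% of all loci. From the mean of the 6 mutant libraries, the cluster's median deviation was -0.93 in Aomdv1 library 2 and -0.25 in Aomdv1 library 1. It was 0.60 in Aovps1 library 2 and -0.13 in Aovps1 library 3. Of 42 proteasome loci 6 (14.3%) lay above without overlap, against 17.9% of all loci. When Aomdv1 library 3 was left out, 23 (54.8%) lay above, against 26% of all loci then. Their median of -0.01 was 0.16 without that library, -0.20 with median-ratio scaling and 0.10 with quantile scaling. The cytosolic ribosome (129 tested) had 3 above and 3 below, fewer than the background in both directions.

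**Figure D5:**
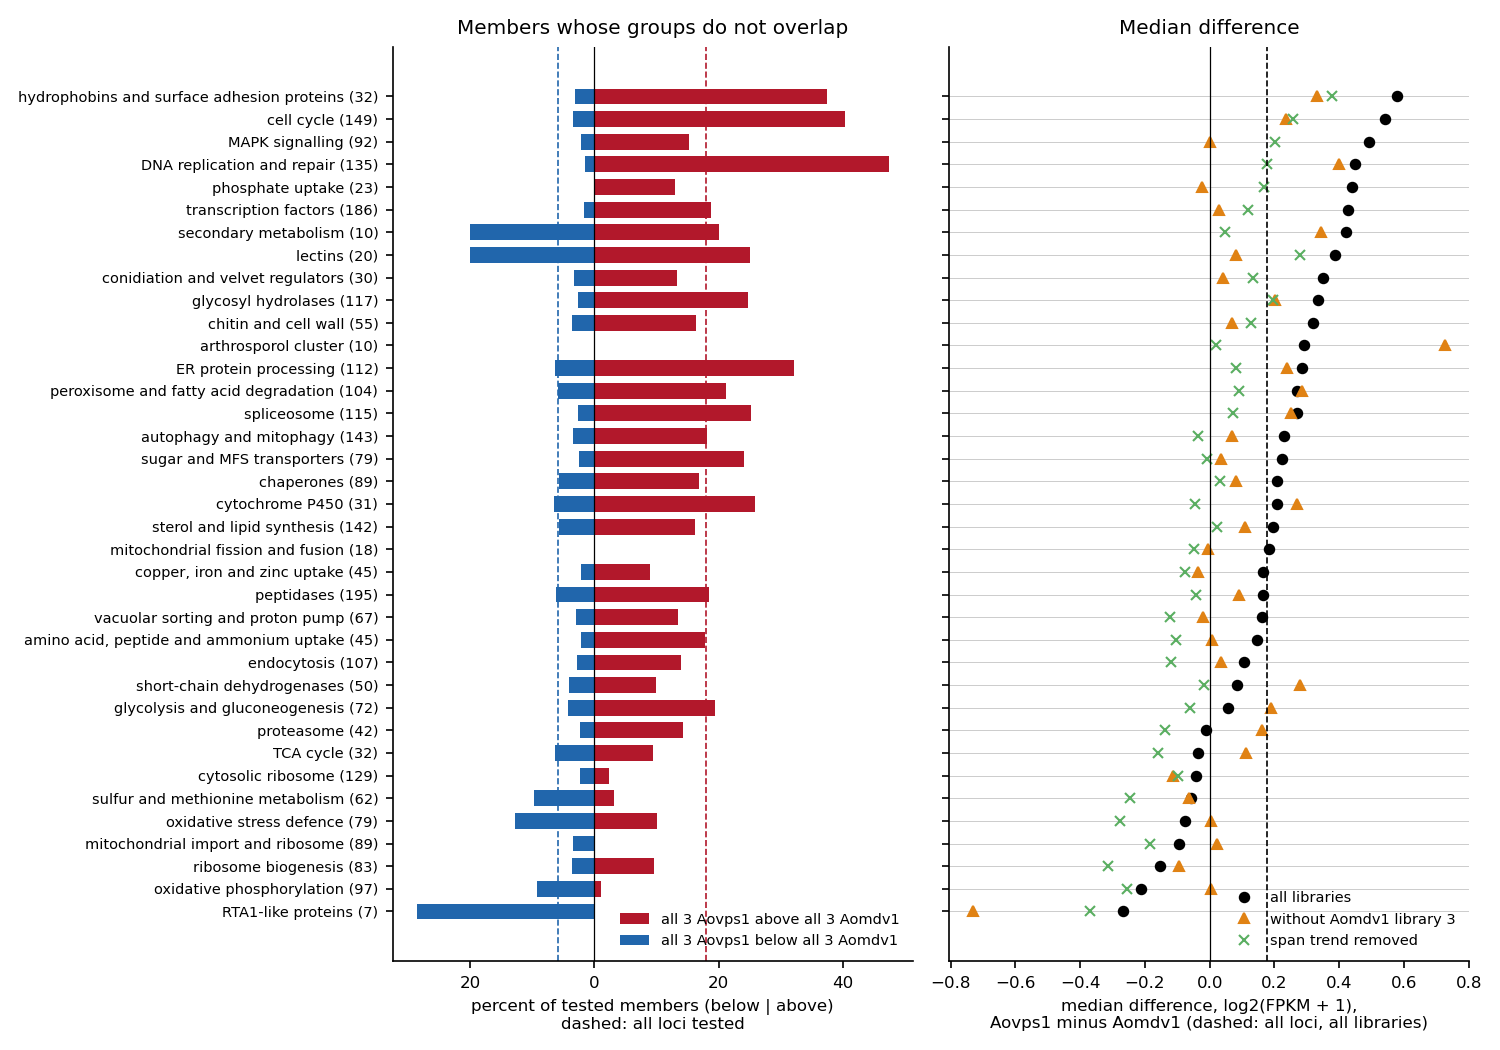
Left, share of tested members of each gene list with all 3 Aovps1 libraries below (blue) or above (red) all 3 Aomdv1 libraries, with dashed lines at 5.87% and 17.9% for all loci. Right, median log2 difference of each list with all libraries, without Aomdv1 library 3 and with the span trend removed; DNA replication and repair keeps 0.40 without that library while MAPK signalling goes to 0.00.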

How the data were processed

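Total RNA of hyphae was sequenced as standard Illumina libraries, per the labels' protocols. The authors deposited 1 table of FPKM values per gene and library, rounded to 2 decimals, which scales fragments by gene length and library size; the sources used here name no aligner or counting program, and do not say whether strand was used. Coordinates are those of the deposited table, and its 11144 locus tags have the same start and end in the RefSeq assembly AOL24927. Functions come from the table's Swiss-Prot, Pfam and KEGG columns. Library depth was inferred from the spacing of low FPKM values at loci under 700 bp; 69 to 80.5% of values lay within 0.1 of a whole fragment, so counts were not rebuilt.

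Values were analysed as log2(FPKM + 1), a scale that understates fold changes of low loci. One mean per group was fitted on all 9 libraries by limma's trend method (version 3.58.1, R 4.3.3), two-sided and with no replicate term, and p-values were Benjamini-Hochberg adjusted over the 9815 loci at a threshold of 0.05. The procedure was also run on simulated data with independent noise at each locus. Those data held no trend on gene span, so that run does not bear on the trend seen here. A locus with at least 1 FPKM in 3 libraries can enter through its high group alone. No pair of libraries was identical (0 pairs), and 0 columns of other samples were present.

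Named loci were MDV1, VPS1 and 5 fission and fusion partners, then 12 annotated loci per direction whose groups do not overlap, with a mean of at least 5 FPKM in 1 group. As none passed the threshold, these were taken by unadjusted p. Examples from the 37 gene lists (Swiss-Prot and Pfam keywords or KEGG maps) were taken as the member with the smallest unadjusted p among those apart. Keywords and maps also brought in genes of other annotation. Among the examples are a glucose transporter on the cell cycle list and L-tryptophan decarboxylase on the sterol and lipid synthesis list. Further genes, the ankyrin and STAND family, the fork and ER sets, loci without annotation and gene runs were picked with their values in view. The members and lists were chosen with earlier results of these data known. Alternatives covered pseudocount, filter, scaling, samples, weights, a replicate block and each library left out. Removing each library's trend on gene span and leaving out Aomdv1 library 3 together with WT library 3, or from a fit of the 6 mutant libraries alone, were added after seeing the data. Sequences were not used here.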

Additional observations from a re-analysis of the deposited data

How the results depend on the processing

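Against 0 called loci, 1 was called with no filter on low values, 1 with median-ratio scaling and 107 with array weights, and 0 with the other pseudocount, a mean FPKM of at least 5, quantile scaling or the 6 mutant libraries alone. Leaving out 1 library gave 0 to 25 calls: 25 without Aomdv1 library 1, 2 without Aomdv1 library 3 and 0 without any of the other 4. Of alternatives added after seeing the data, removing the span trend gave 0 calls, leaving out library 3 of both the Aomdv1 mutant and WT gave 58, and the mutant libraries alone without Aomdv1 library 3 gave 33. The gene lists hold 2451 tested loci. Of these the same settings called 1 (median-ratio), 22 (array weights), 0 to 3 (1 library left out), 16 and 6. Of all 9815 loci they called 1, 107, 0 to 25, 58 and 33. The labels do not say whether replicate numbers pair the libraries. Deviations from the group mean correlated at -0.04, -0.29 and -0.26 for like numbers and at -0.14 to 0.29 for unlike numbers. Within a group of 3 libraries such deviations depend on each other, so these values cannot decide it. A fit with the replicate block called 0 loci. Median-ratio scaling set the median difference of all loci to 0.002 and quantile scaling to 0.02, against 0.18 on the deposited scale, and the share of separated loci that lay above went with it, as given with the results.

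Of 403 values of the 24 loci named by rule under the alternatives, 364 kept direction and side of the threshold, 39 passed it, and 0 turned sign. The 24 were picked for groups that do not overlap, so leaving out or weighting libraries could not turn their sign. Loci near 0, which were named without that condition, did turn. MDV1 was -0.00786 with median-ratio scaling, -0.0798 with array weights, -0.10 with the span trend removed and -0.00313 in each setting without Aomdv1 library 3, and -0.00313 to 0.31 with 1 library left out. VPS1 ran from -0.44 to 0.0731 with 1 library left out, positive without Aovps1 library 2. DNM1 was -0.0498 with the span trend removed. FIS1 was 0.0252 with array weights and ran from -0.24 to 0.0870 with 1 library left out. FZO1 was -0.18 with array weights, -0.26 in each setting without Aomdv1 library 3, and -0.26 to 0.73 with 1 library left out. MGM1 was -0.15 with median-ratio and -0.0558 with quantile scaling, -0.11 with array weights and in each setting without Aomdv1 library 3, -0.35 with the span trend removed, and -0.11 to 0.14 with 1 library left out. The causes were not tested. The unadjusted 95% interval of a locus reached a median of 0.86 to either side on the log2 scale, and 0.547 with array weights; the adjusted threshold asks for more, since 0 of the 1039 loci with a difference of 1 or more passed it.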

Other observations

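Of the 576 loci below in the Aovps1 mutant without overlap, 117 (20.3%) carry no locus tag, against 67 of 1760 above (3.81%) and 10.7% of all members. The loci that follow have no annotated function and were picked with their values in view. AOL_s00043g552 (on NW_011645600.1 at 1837444 to 1838679, minus strand) had 134.09, 124.64 and 102.74 FPKM in the Aovps1 mutant, 802.08, 922.56 and 423.88 FPKM in the Aomdv1 mutant and 951.97, 1906.1 and 852.31 FPKM in WT (log2 difference -2.49, 95% interval -3.35 to -1.64, limma adjusted p = 0.271). AOL_s00097g380 had 18.99, 31.71 and 13.2 FPKM in the Aovps1 mutant, 76.32, 140.97 and 172.1 FPKM in the Aomdv1 mutant and 33.22, 49.13 and 46.04 FPKM in WT, so the Aomdv1 mutant was the high group. AOL_s00076g18 had 1.0, 1.22 and 0.93 FPKM in the Aovps1 mutant, 11.65, 11.76 and 9 FPKM in the Aomdv1 mutant and 59.6, 97.07 and 391.72 FPKM in WT, in 3 steps. AOL_s00043g805 (on NW_011645600.1 at 2738884 to 2739327, minus strand) has a neighbour without a tag on the plus strand, at 2738306 to 2738773. That neighbour had 3.31, 3.06 and 1.99 FPKM in the Aovps1 mutant, 48.19, 62.47 and 13.73 FPKM in the Aomdv1 mutant and 70.98, 117.26 and 300.93 FPKM in WT. AOL_s00043g805 itself had 6.29, 7.15 and 7.8 FPKM in the Aovps1 mutant, 56.76, 100.95 and 8 FPKM in the Aomdv1 mutant and 83.18, 178.67 and 292.48 FPKM in WT.

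Runs of at least 3 neighbouring loci past the threshold numbered 0. With an unadjusted p below 0.05 and no overlap there were 3 runs, all above in the Aovps1 mutant. One (AOL_s00078g573 to AOL_s00078g575, on NW_011645635.1 at 1965856 to 1974241) holds a LysM domain gene, of the family that binds chitin, and 2 glucan endo-1,3-beta-glucosidase genes, which may share reads. AOL_s00078g573 had 155.44, 193.69 and 217.58 FPKM in the Aovps1 mutant, 107.6, 31.31 and 119.79 FPKM in the Aomdv1 mutant and 388.18, 308.52 and 328.39 FPKM in WT. AOL_s00078g575 had 42.02, 69.27 and 57.24 FPKM in the Aovps1 mutant, 25.86, 6.2 and 24.42 FPKM in the Aomdv1 mutant and 91.63, 67.17 and 65.67 FPKM in WT. Both were lowest in the Aomdv1 mutant. The glucosidase gene between them, AOL_s00078g574, had 24.61, 33.21 and 29.84 FPKM in the Aovps1 mutant, 11.33, 3.98 and 0.27 FPKM in the Aomdv1 mutant and 49.05, 38.15 and 9.96 FPKM in WT. Another run ends with AOL_s00078g404, like the acyl-CoA ligase sidI of siderophore synthesis in Aspergillus, at 23.61, 19.45 and 23.28 FPKM in the Aovps1 mutant, 16.12, 7.19 and 6.31 FPKM in the Aomdv1 mutant and 5.12, 4.86 and 9.88 FPKM in WT.

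A few further list members, each the one with the smallest p of its list and direction among those apart, had wide gaps. L-tryptophan decarboxylase (AOL_s00097g76) had 663.7, 368.06 and 763.34 FPKM in the Aovps1 mutant, 240.33, 93.83 and 150.4 FPKM in the Aomdv1 mutant and 1142.67, 1554.84 and 6299.79 FPKM in WT, so the Aomdv1 mutant was lowest. A diacylglycerol pyrophosphate phosphatase (AOL_s00004g14), which yields diacylglycerol, had 17.94, 9.15 and 11.88 FPKM in the Aovps1 mutant, 64.82, 150.39 and 29.29 FPKM in the Aomdv1 mutant and 125.94, 134.23 and 40.33 FPKM in WT. Glutaredoxin-2 (AOL_s00006g226), which reduces disulfides with glutathione, had 212.89, 183.28 and 193.11 FPKM in the Aovps1 mutant, 316.46, 448.71 and 772.53 FPKM in the Aomdv1 mutant and 220.32, 255.12 and 257.95 FPKM in WT. The Aomdv1 mutant was the high group for glutaredoxin-2, above WT as well. The histone chaperone gene asf1 (AOL_s00054g628) had 169.3, 133.99 and 176.87 FPKM in the Aovps1 mutant, 100.53, 61.18 and 35.5 FPKM in the Aomdv1 mutant and 102.07, 73.31 and 70.46 FPKM in WT. Checkpoint kinase chk1 (AOL_s00080g44), which halts division on DNA damage, had 37.76, 39.94 and 38.9 FPKM in the Aovps1 mutant, 24.42, 19.14 and 13.46 FPKM in the Aomdv1 mutant and 23.6, 18.62 and 20.13 FPKM in WT. For asf1 and chk1 the Aovps1 mutant lay above both other groups. None of these passed the limma threshold with all libraries weighted alike, with adjusted p between 0.463 and 0.466.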
